A study of Homo sapiens with 2 samples.

Results

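The miR-26 and miR-101 families were examined through the 7 mature miRNAs chosen by name, namely both arms of the hairpins of miR-26a, miR-26b and miR-101 as far as they were listed. They were 7 of 2218 listed miRNAs, and all 7 had reads in both libraries. The tested library came from K562 cells transduced with a lentivirus that overexpresses QKI5, and its control from K562 cells transduced with a GFP lentivirus, so both carried a lentiviral insert. K562 is an established human erythroleukaemia line, and QKI5 is a nuclear isoform of Quaking, an RNA-binding protein. The question was which mature miRNAs differ in level when QKI5 is in excess. Each group had 1 library, so no difference below has a replicate check, and the overexpression itself was not checked from these data.

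A miRNA hairpin is cut out of its primary transcript by Drosha and into a short duplex by Dicer. One strand of the duplex, called 5p or 3p after its side of the hairpin, is usually retained in an Argonaute protein and the other mostly degraded. Bases 2 to 8 of the retained strand, the seed, pair with target messages. miR-26 and miR-101 are known as repressors of EZH2, the histone methyltransferase of a Polycomb complex, and both are reported to be low in several tumour types. The human miR-26 hairpins lie in introns of genes for small phosphatases that act on the tail of RNA polymerase. EZH2 and the host messages were not analysed here.

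The mature sequences are shown because seed and arm decide which members can be told apart. They are RefSeq sequences (GRCh38.p14), written 5′ to 3′ with the seed in capitals, and all 7 names matched.
hsa-miR-26a-5p: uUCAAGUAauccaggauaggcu
hsa-miR-26b-5p: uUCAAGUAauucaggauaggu
hsa-miR-26a-1-3p: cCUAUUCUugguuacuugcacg
hsa-miR-26a-2-3p: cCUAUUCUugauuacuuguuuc
hsa-miR-26b-3p: cCUGUUCUccauuacuuggcu
hsa-miR-101-3p: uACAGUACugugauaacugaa
hsa-miR-101-5p: cAGUUAUCacagugcugaugcu

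miR-26a-5p and miR-26b-5p share the seed UCAAGUA. Counted from the 5′ end, with the base of miR-26a-5p first, they differ by C11U and C21U among the 21 positions compared, and miR-26a-5p is 1 base longer. The 3p arms of the miR-26a hairpins share the seed CUAUUCU and differ, with miR-26a-1-3p first, by G11A, C19U, A20U, C21U and G22C. The 3p arm of miR-26b and both arms of miR-101 have seeds of their own.

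The hairpins of miR-26a are printed next because the same 5p arm comes out of both, while each 3p arm belongs to 1 hairpin. Capitals mark the mature arms.
MIR26A1: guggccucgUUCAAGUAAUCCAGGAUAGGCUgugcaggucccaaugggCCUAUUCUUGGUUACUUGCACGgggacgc
MIR26A2: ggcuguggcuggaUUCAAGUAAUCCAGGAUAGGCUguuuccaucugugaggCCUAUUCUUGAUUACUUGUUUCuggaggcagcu

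In GRCh38.p14, MIR26A1 lies at chr3:37969404-37969480 on the plus strand and MIR26A2 at chr12:57824609-57824692 on the minus strand. MIR26B lies at chr2:218402646-218402722 on the plus strand, MIR101-1 at chr1:65058434-65058508 on the minus strand and MIR101-2 at chr9:4850297-4850375 on the plus strand. GENCODE release 29 places 4 of these 5 hairpins inside a protein-coding gene of the same strand, with no exon of that gene over the hairpin, so they are intronic. The hosts are CTDSPL for MIR26A1, CTDSP2 for MIR26A2, CTDSP1 for MIR26B and RCL1, a gene for a nucleolar protein of ribosomal RNA processing, for MIR101-2. No gene other than its own covered MIR101-1. The submitters' processing notes name the build hg19, so these positions come from the reference annotation and not from the deposited values. Reads of miR-26a-5p and of miR-101-3p, which each come from 2 hairpins, cannot be assigned to 1 of them.

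The totals behind the values, worked back from the size of 1 read in each column, were 6553945 reads for QKI5, 3899030 of them on listed miRNAs, and 23262340 reads for GFP, 15418197 of them on listed miRNAs. Which reads the authors counted in these totals was not given in the sources used here, and every RPM and ratio rests on them. Levels are given as RPM, that is, reads per 1000000 of a library's reads. The ratios given are RPM in the QKI5 library over RPM in the GFP library, with an exact conditional binomial 95% interval of the recovered reads, which covers counting error only, since the reads carry no molecular identifiers and are not independent molecules. Log2 ratios are on log2(RPM + 0.153), and a miRNA was called at 2-fold when that value reached 1 or -1 and its mean over both libraries put it among the 200 most abundant. All 7 members are 21 or 22 bases long, so RPM needs no further correction for length when their levels are set beside each other. Whether different sequences were recovered equally well was not tested, so shares and ranks are of reads.

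The families were uneven in level. miR-26a-5p, the main arm of miR-26a, was far ahead of the rest and ranked 27 among all listed miRNAs by mean level, 32 with QKI5 and 22 with GFP. miR-101-3p, the main arm of miR-101, came next, at rank 91. miR-26b-5p stood at rank 237, miR-26b-3p at 282, miR-101-5p at 312, miR-26a-2-3p at 317 and miR-26a-1-3p at 522. The 7 members together held 0.397% of the miRNA reads of the QKI5 library (95% Wilson interval 0.391% to 0.403%) and 0.467% of those of the GFP library (0.463% to 0.470%).

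**Figure D1:**
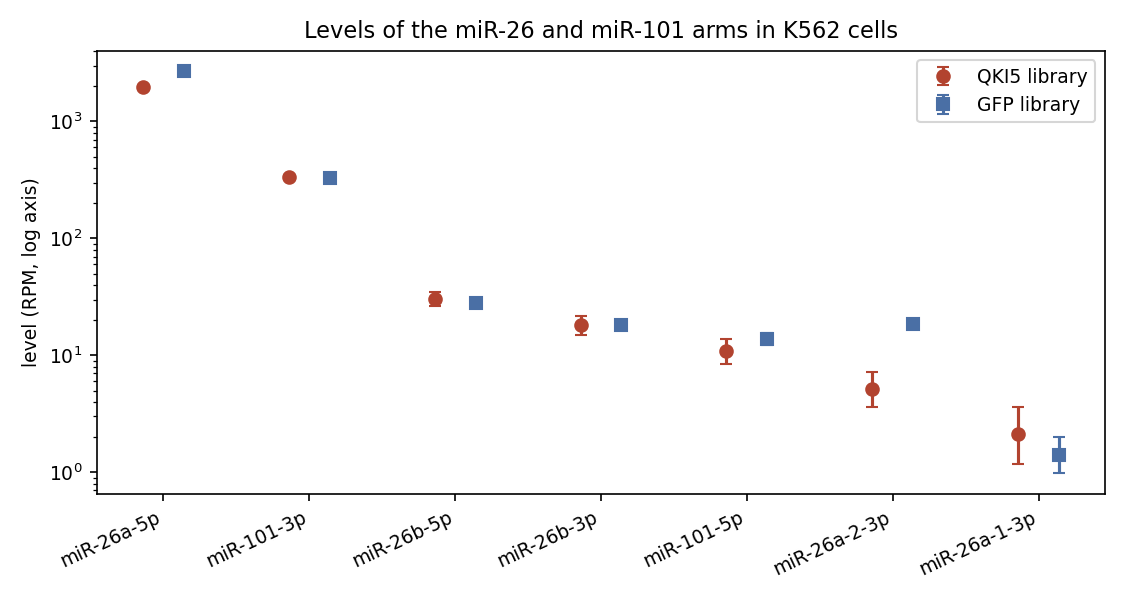
Level of each arm in RPM (log axis) in the QKI5 library (circles) and the GFP library (squares), with exact Poisson 95% intervals that cover counting error only. The arms are ordered by mean level. The libraries lie apart for miR-26a-5p (1962 RPM with QKI5, against 2687 RPM with GFP) and for miR-26a-2-3p (5.19 RPM with QKI5, against 18.7 RPM with GFP).

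Between the libraries, at the deposited scaling, miR-26a-5p and miR-26a-2-3p were lower with QKI5 by more than counting error. The intervals of miR-26a-1-3p and of the miR-26b and miR-101 arms held a ratio of 1 at that scaling. Of the 7 ratios, 2 had an interval wholly below 1, those of miR-26a-5p and miR-26a-2-3p, 0 had one wholly above 1 and 5 had an interval that held 1. By sign alone, 4 of the ratios were above 1 and 3 below. Of the 200 most abundant miRNAs, 93.5% had an interval off 1, and of the 400 most abundant, which include 6 of the members, 80.8% did (48.2% wholly above 1 and 32.5% wholly below). None of the 2 members among the 200 was at 2-fold (0, against 22.0% of the 200), and 1 of the 6 among the 400 was, miR-26a-2-3p (28.0% of the 400 were at 2-fold and 7.25% were at least 2-fold lower, and 31.1% of the 1995 miRNAs with a read were at 2-fold). miR-26a-2-3p was among the 400 only through its GFP level, at rank 265 with GFP and 405 with QKI5. The median log2 ratio was 0.01 over the 7 members, 0.06 over the 200 and 0.21 over the 400.

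**Figure D2:**
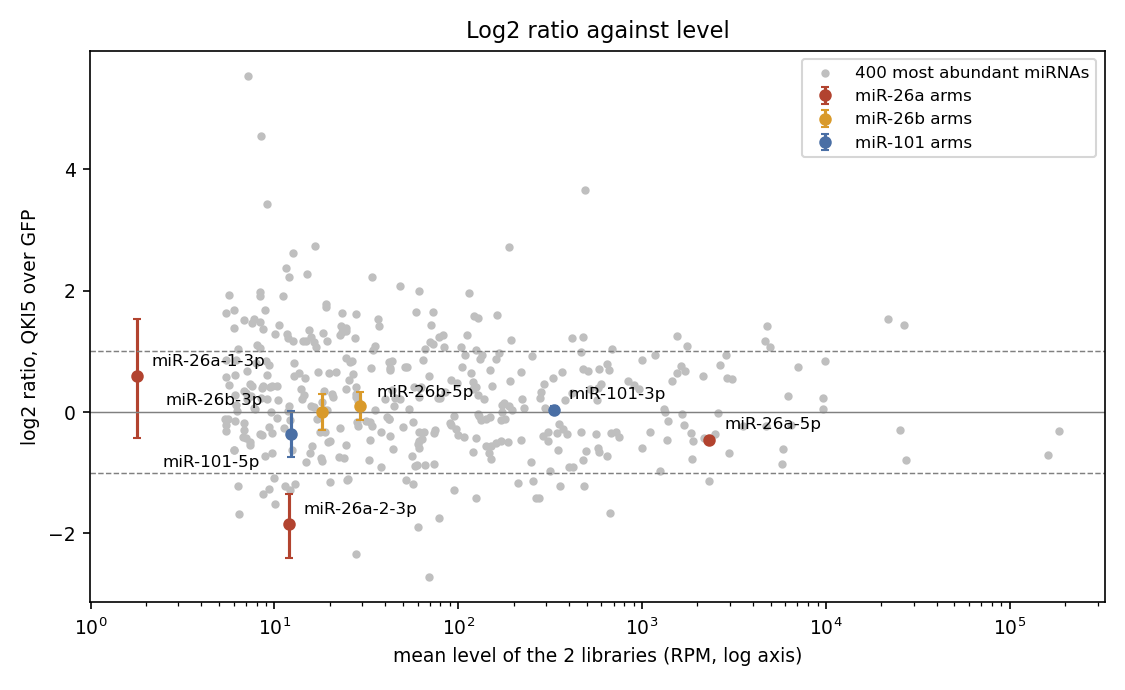
Log2 ratio of QKI5 over GFP against the mean level of the 2 libraries in RPM (log axis), for the 400 most abundant miRNAs (grey) and the 7 arms (coloured, with 95% counting intervals), without a pseudocount. Dashed lines mark 2-fold. miR-26a-2-3p lies at -1.85, below the lower line, and the other 6 arms lie between the lines.

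miR-26a-5p, the strand that carries the EZH2-pairing seed of the family, was moderately lower with QKI5. It had 12858 reads or 1962 RPM in the QKI5 library, against 62516 reads or 2687 RPM in the GFP library. It was 1.37-fold lower (1.34 to 1.40), a log2 ratio of -0.45. This placed it at rank 149 of 200 when the 200 most abundant miRNAs were ordered from the highest ratio to the lowest, so it lay in the lower part of their range and not at its edge. Across all of the scalings compared its log2 ratio stayed below 0, from -1.03 with a trimmed mean of all miRNAs, which puts it past 2-fold, to -0.30 with each column scaled to its listed miRNA total.

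miR-26b-5p, which carries the same seed, had 199 reads or 30.4 RPM in the QKI5 library, against 656 reads or 28.2 RPM in the GFP library. At the deposited scaling its ratio of 1.08 had an interval (0.914 to 1.26) that held 1. Its log2 ratio of 0.11 turned to -0.47 with a trimmed mean and -0.18 with quantile normalization. It was 0.35 once a straight-line trend on GC content was taken out. The shifts to -0.47 and 0.35 were wide enough to take such an interval off 1, in opposite directions. Since miR-26b-5p had few reads, almost all main-arm reads with this seed were of miR-26a-5p. It made up 98.48% of them with QKI5 (95% Wilson interval 98.25% to 98.67%) and 98.96% with GFP (98.88% to 99.04%). The main arms together were at 1992 RPM with QKI5, against 2716 RPM with GFP, 1.36-fold lower (1.34 to 1.39).

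The main arms of miR-26a and miR-26b can be set against each other within a library, in a ratio that no factor applied to a whole column alters. There were 64.6 reads of miR-26a-5p per read of miR-26b-5p in the QKI5 library (56.2 to 74.7), against 95.3 in the GFP library (88.2 to 103). The quotient of these was 0.678 (0.577 to 0.80, an exact conditional interval of the odds ratio). miR-26a-5p was thus lower relative to its seed partner with QKI5 by more than counting error. The arms differ by few bases, and the rule for reads that match both, exactly or with a mismatch, was not given in the sources used here.

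Other listed miRNAs with a RefSeq sequence and the seed UCAAGUA were barely detected. miR-1297 had 0 reads with QKI5 and 2 with GFP, and miR-4465 had 0 with QKI5 and 1 with GFP. In the QKI5 library 0 reads still allow 0.458 RPM (3 reads), so a difference in either was not detectable at this depth.

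miR-26a-2-3p, the strand opposite miR-26a-5p in the MIR26A2 hairpin of CTDSP2, showed the widest difference of the 7. It had 34 reads or 5.19 RPM in the QKI5 library, against 435 reads or 18.7 RPM in the GFP library. It was 3.60-fold lower (2.54 to 5.27). By level it ranked 265 with GFP and 405 with QKI5, so it was among the 400 most abundant only through its GFP level. Its log2 ratio of -1.82 was the 4th lowest of those 400, a place that is therefore not independent of the difference. The value stayed below -1 under all of the settings compared, from -2.38 with a trimmed mean to -1.54 with the GC trend removed.

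miR-26a-1-3p, the matching strand of the MIR26A1 hairpin of CTDSPL, was the least abundant member. It had 14 reads or 2.14 RPM in the QKI5 library, against 33 reads or 1.42 RPM in the GFP library. The ratio of 1.51 had an interval from 0.745 to 2.89, so these few reads do not show a direction. Both hairpin-specific arms share a seed, and among the listed miRNAs with a RefSeq sequence the only other one with bases 2 to 7 of it was miR-6731-3p, with 0 reads under QKI5 and 2 under GFP.

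The 3p arms of the miR-26a hairpins thus differed in their balance. The QKI5 library held 2.43 reads of miR-26a-2-3p per read of miR-26a-1-3p (1.27 to 4.90), against 13.2 in the GFP library (9.25 to 19.4). The quotient was 0.184 (0.0862 to 0.412). As a share of the 3p reads of miR-26a, miR-26a-2-3p made up 70.8% of 48 reads with QKI5 (95% Wilson interval 56.8% to 81.8%) and 92.9% of 468 reads with GFP (90.3% to 94.9%). The arm from the CTDSP2 hairpin was the majority in both libraries and a smaller majority with QKI5.

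The 5p arm was lower with QKI5, as miR-26a-2-3p was, but by less. Its difference from the few reads of miR-26a-1-3p was at the edge of counting error. There were 378 reads of miR-26a-5p per read of miR-26a-2-3p in the QKI5 library (270 to 546), against 143.7 in the GFP library (131 to 158), a quotient of 2.63 (1.85 to 3.85). Per read of miR-26a-1-3p there were 918 reads of miR-26a-5p with QKI5 (547 to 1680) and 1894 with GFP (1349 to 2752), a quotient of 0.485 (0.252 to 0.981). Against the 3p arms of both hairpins together the quotient was 2.01 (1.49 to 2.76), with 268 reads per read with QKI5 and 134 with GFP. Since the 5p arm pools 2 hairpins, its reads do not say how much of it each hairpin gave in either library.

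miR-26b, from CTDSP1, kept its arm balance within counting error, and at the deposited scaling its level too. miR-26b-3p had 119 reads or 18.2 RPM in the QKI5 library, against 420 reads or 18.1 RPM in the GFP library, and its ratio was 1.01 (0.813 to 1.24). Its log2 ratio of 0.01 changed sign with the scaling, from -0.56 with a trimmed mean to 0.16 with each column scaled to its listed miRNA total. The shift with the trimmed mean was wide enough to take such an interval off 1. There were 1.67 reads of miR-26b-5p per read of miR-26b-3p with QKI5 (1.33 to 2.12) and 1.56 with GFP (1.38 to 1.77), a quotient of 1.07 (0.821 to 1.40). Its arms were closer to each other in level than those of miR-26a or miR-101.

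The place of miR-26a-2-3p in the order of levels changed between the libraries. In the QKI5 library there were 0.286 reads of miR-26a-2-3p per read of miR-26b-3p (0.189 to 0.421), against 1.04 in the GFP library (0.904 to 1.19). It was therefore clearly below miR-26b-3p with QKI5, while the GFP library did not separate them.

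**Figure D3:**
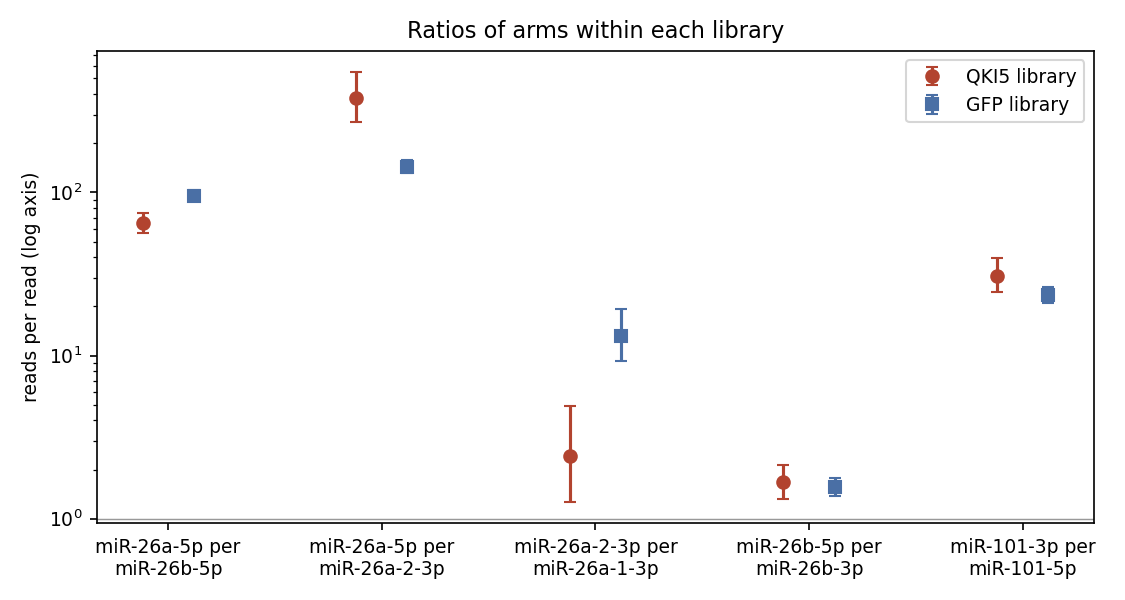
Reads of one arm per read of another within each library (log axis), in the QKI5 library (circles) and the GFP library (squares), with exact 95% counting intervals. The intervals lie apart for the first 3 pairs (64.6 with QKI5 and 95.3 with GFP, 378 with QKI5 and 143.7 with GFP, 2.43 with QKI5 and 13.2 with GFP). They overlap for the pairs of miR-26b and miR-101.

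miR-101-3p, the strand that represses EZH2, was at nearly the same level in both libraries at the deposited scaling. It had 2191 reads or 334 RPM in the QKI5 library, against 7577 reads or 326 RPM in the GFP library. The ratio of 1.03 had a narrow interval, from 0.978 to 1.08, which held 1 at the deposited scaling. Its log2 ratio of 0.04 was at rank 103 of the 200 most abundant miRNAs. It turned to -0.07 when the scaling ignored the 10 most abundant miRNAs and to -0.54 with a trimmed mean. It was 0.19 under quantile normalization and 0.29 with the GC trend removed. The shifts to -0.54, 0.19 and 0.29 were wide enough to take such an interval off 1, so its direction depended on the setting.

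miR-101-5p, the opposite strand in MIR101-1, had 71 reads or 10.8 RPM in the QKI5 library, against 322 reads or 13.8 RPM in the GFP library. Its ratio of 0.783 had an interval from 0.597 to 1.01, which just held 1 at the deposited scaling. Its log2 ratio of -0.35 was -0.92 with a trimmed mean, -0.63 with a trimmed mean over the 400 most abundant and -0.72 under quantile normalization. It was -0.46 when the scaling ignored the 10 most abundant miRNAs. Each of these shifts was wide enough to take such an interval off 1. The log2 ratio was -0.20 with each column scaled to its listed miRNA total and -0.33 with the GC trend removed. There were 30.9 reads of miR-101-3p per read of miR-101-5p with QKI5 (24.4 to 39.7) and 23.5 with GFP (21.0 to 26.4). The quotient of 1.31 had an interval from 1.01 to 1.73, at the edge of counting error. miR-101-3p pools both hairpins while the name miR-101-5p stands for that of MIR101-1, and RefSeq lists the 5p arm of MIR101-2 under another name that was not analysed here.

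miR-26a-5p and miR-101-3p, the abundant EZH2-repressing members, differed in their ratios. There were 5.87 reads of miR-26a-5p per read of miR-101-3p in the QKI5 library (5.61 to 6.14), against 8.25 in the GFP library (8.06 to 8.45), a quotient of 0.711 (0.676 to 0.749). miR-26a-5p was the more abundant in both.

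miR-144-3p, an erythroid miRNA, shares bases 2 to 7 with miR-101-3p and is the only listed miRNA with a RefSeq sequence to do so. It is shown with its bases 2 to 8 in capitals, the last of which differs from miR-101-3p (C8U, with the base of miR-101-3p first).
hsa-miR-144-3p: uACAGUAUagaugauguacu
It was at 293 RPM in the QKI5 library, against 548 RPM in the GFP library, 1.87-fold lower (1.78 to 1.96). There were 1.14 reads of miR-101-3p per read of miR-144-3p with QKI5 (1.07 to 1.21) and 0.594 with GFP (0.577 to 0.611), a quotient of 1.92 (1.79 to 2.05). miR-101-3p was thus the more abundant of these in the QKI5 library and the less abundant in the GFP library.

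A list of 10 other miRNAs reported elsewhere to repress EZH2 gave a mixed picture. Of these, 4 had an interval above 1 and 1 had an interval below 1, while 3 had at most 3 reads in both libraries. Over the 1995 miRNAs with a read, 16.2% had an interval above 1 and 8.02% one below 1, and over the 400 most abundant these shares were 48.2% and 32.5%. miR-25-3p was highest in mean level, at 921 RPM with QKI5, against 448 RPM with GFP, 2.05-fold higher (1.99 to 2.12). In the GFP library miR-144-3p, at 548 RPM, was above it. let-7a-5p was at 588 RPM with QKI5, against 361 RPM with GFP, 1.63-fold higher (1.57 to 1.69). The let-7 relatives let-7b-5p and miR-98-5p were low, with 30 and 26 reads under QKI5 and 31 and 17 under GFP, at ratios of 3.43 (2.01 to 5.87) and 5.43 (2.84 to 10.7). miR-144-3p was the lower one. miR-30d-5p stood at 0.958 (0.886 to 1.03), and miR-138-5p, at 1.55 (0.540 to 3.99), had 7 reads with QKI5 and 16 with GFP. miR-214-3p, miR-217 and miR-124-3p had 0, 0 and 1 reads with QKI5 and 1, 3 and 0 reads with GFP.

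Of the 10, 4 were among the 200 most abundant miRNAs, and 1 of these, miR-25-3p, was at least 2-fold higher, against 15.0% of the 200. At 1.04 on the log2 scale as deposited, miR-25-3p dropped under 1 in 5 settings, at 0.93 without the 10 most abundant miRNAs in the scaling, 0.46 and 0.76 with the trimmed means of all and of 400 miRNAs, 0.97 with the GC trend removed and 0.94 under quantile normalization. The list's median log2 ratio was 0.62 over all 10, against 0.12 over the 1995 miRNAs with a read. The list's median dropped to 0.25 at a pseudocount of 1 RPM, to 0.18 at a pseudocount 10 times as large as the 0.153 RPM used, and to 0.088 with a trimmed mean. The median over the 1995 miRNAs was not recomputed under these settings, so the drops do not show whether the list moved relative to it. The trimmed mean also took the median of the 200 most abundant from 0.06 to -0.52. Without a pseudocount, with counts of 0 set to 3 reads and members of at most 3 reads left out, the list's median was 0.70 over 7 members, against 0.61 over 1052 miRNAs. On that scale the list lay close to all miRNAs.

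Nearness of level and ratio was measured as the Euclidean distance between the pairs of log2 values in the 2 libraries. Nearest to miR-26a-5p were miR-15a-5p (distance 0.134), with 1860 RPM under QKI5 and 2491 RPM under GFP, miR-451a (0.167) and miR-145-5p (0.394). miR-26b-5p was nearest to miR-362-5p (0.0695), miR-223-5p and miR-629-5p, and miR-101-3p to miR-9-5p (0.214), miR-374a-5p and miR-494-3p. With 2 libraries this describes closeness of values and nothing more.

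**Figure D4:**
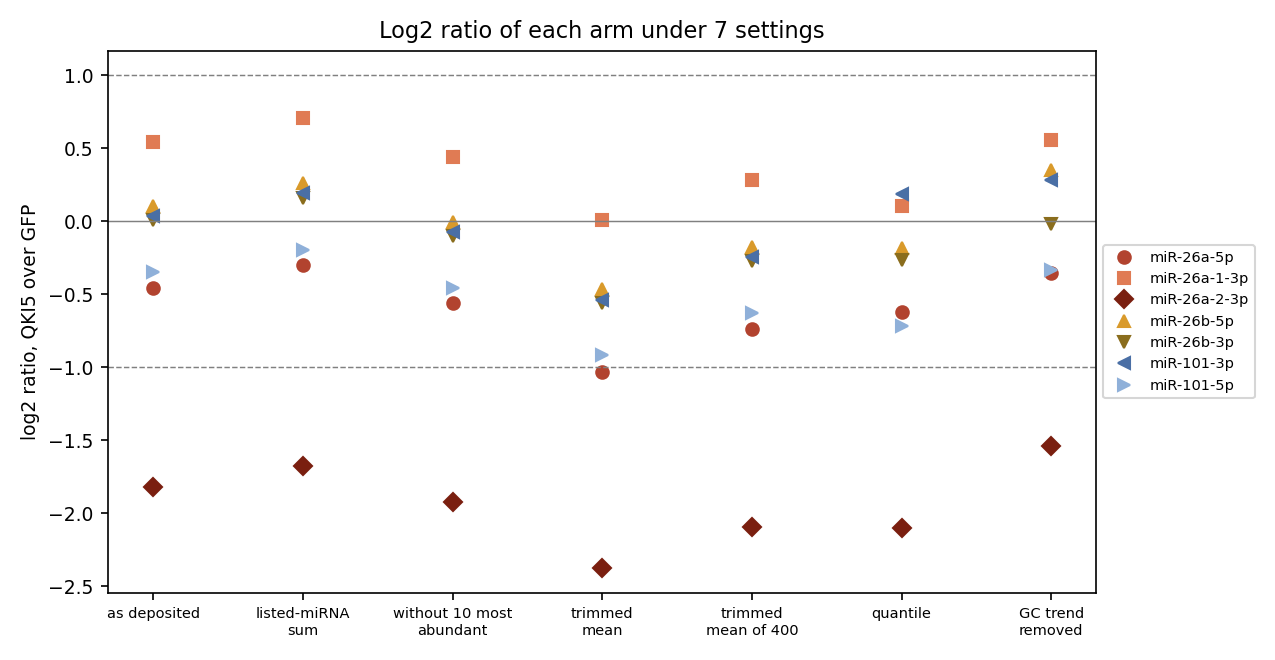
Log2 ratio of QKI5 over GFP for each of the 7 arms as deposited, under 5 other scalings and with a linear GC trend removed. Dashed lines mark 2-fold. miR-26a-2-3p lies below -1 in every column, miR-26a-5p and miR-101-5p lie below 0 in every column, and miR-26b-5p, miR-26b-3p and miR-101-3p lie on both sides of 0.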

How the data were processed

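Mature miRNA levels were read from 1 deposited table with a column for each library (QKI5, GFP; 1 library each). Per the labels' protocols, small RNA was enriched and sequenced on an Ion Proton instrument, and hg19 and Bowtie 0.12.3 stand in the submitters' processing notes. The annotation, mismatches, multiply mapped reads and strand setting were not given in the sources used here. Although the table is named RPKM, the deposited values are RPM made by the authors: 100.0% of values above 0 were whole multiples of 1 step per column (tolerance 0.1 of a read), 0.153 RPM with QKI5 and 0.0430 RPM with GFP, which gave back the reads. An exact binomial test of those reads, Benjamini-Hochberg adjusted at 0.05, called 426 of 1995 miRNAs and 2 of the 7 members; it compares these 2 libraries, not the conditions. The members and lists were chosen with earlier results of these data known. All members, seed relatives, listed EZH2-repressing miRNAs, miRNA neighbours within 10 kb and the 3 nearest miRNAs of each main arm are named. Mature sequences from RefSeq matched 1946 of 2218 names and 186 of the 200. The GC trend was fitted over these 186. Calculations ran in pandas 2.3.3, scipy 1.17.1 and numpy 2.4.6 under Python 3.11.15. Only the 2-fold threshold and the counting interval of the ratio were tested on simulated data, which were drawn as independent reads.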

Additional observations from a re-analysis of the deposited data

How the results depend on the processing

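Of 97 recomputed values, 56 stayed and 41 moved. A value stayed when it lay within the counting interval of the reported one. For the list median this meant within 0.1 of it, and for the count of members at 2-fold an equal count. The median log2 ratio of the 200 most abundant miRNAs shifted by 0.16 with columns scaled to the listed miRNA total, by -0.11 without the 10 most abundant, by -0.58 with a trimmed mean and by -0.28 with a trimmed mean over the 400 most abundant, a setting chosen after seeing the data. Of the 1265 miRNAs behind the first trimmed mean, 717 had at most 10 reads in the QKI5 library. Higher ratios made up 68.2% of the 2-fold calls as deposited, 77.4% with columns scaled to the listed total, 56.1% without the 10, 12.9% and 31.7% with the trimmed means and 47.4% under quantile normalization.

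Log2 ratios are given in the order miR-26a-5p, miR-101-3p, miR-26 main arms, all 7 members and, last, the median of the other EZH2-repressing miRNAs. They were -0.30, 0.19, -0.29, -0.23 and 0.79 with columns scaled to that total. Without the 10 most abundant miRNAs they were -0.56, -0.071, -0.56, -0.50 and 0.52. The trimmed mean gave -1.03, -0.54, -1.02, -0.97 and 0.088, and its version over the 400 gave -0.74, -0.24, -0.73, -0.67 and 0.36. Quantile normalization gave -0.62, 0.19, -0.62, -0.53 and 0.35. With the GC trend removed miR-26a-5p was at -0.35, miR-101-3p at 0.29, miR-26b-5p at 0.35 and the EZH2 list at 0.89, and that list was at 0.25 with a pseudocount of 1 RPM and 0.18 with 10 times the pseudocount of 0.153 RPM. miR-26b-5p was at -0.47, -0.17 and -0.18 with the trimmed mean, its version over the 400 and quantile normalization. With the trimmed mean miR-26a-2-3p was at -2.38, miR-26b-3p at -0.56 and miR-101-5p at -0.92. The count of members at 2-fold, 0 as reported, was 1 with the trimmed mean (miR-26a-5p; 31.0% of the 200 were at 2-fold there), 1 among the 400 most abundant (28.0%) and 1 without a level filter (31.1%), both times miR-26a-2-3p, and 2 by the binomial test (21.4% of all tested). The cause of these shifts was not tested.

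No paired analysis was possible because each group had 1 library, so leaving a library out was not run either. Depth limits miR-26a-1-3p most, with 14 and 33 reads in the QKI5 and GFP libraries. Ratios of arms within a library are unaffected by the scalings that multiply a column.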

Other observations

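QKI proteins are known to bind RNA at the letters ACUAA, often with UAAC or UAAU nearby. The hairpins were therefore searched for the presence of ACUAA, UAAC and UAAU on the transcript strand. ACUAA was in 0 of the 5 hairpins and in 3.27% of 1560 RefSeq hairpins. UAAC was in 2 of the 5, MIR101-1 and MIR101-2, where it falls in the shared miR-101-3p arm, and in 12.6% of the 1560. UAAU was in the other 3, MIR26A1, MIR26A2 and MIR26B, where it falls in the miR-26a-5p and miR-26b-5p arms, and in 15.3% of the 1560. A match is a description of the letters and not a site, and the flanks of the hairpins were not searched.

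The 1 annotated miRNA gene within 10 kb of a member's hairpin was MIR3671, beside MIR101-1. miR-3671 had 0 reads with QKI5 and 2 with GFP.

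GC content of the mature members ran from 31.8% for miR-26a-2-3p to 47.6% for miR-26b-3p. Over the 186 of the 200 most abundant miRNAs with a RefSeq sequence, the log2 ratio was higher by 0.19 for each 10 percentage points of GC. The arm with the lowest GC content was also the one with the lowest ratio, and its log2 ratio with that trend removed was -1.54. At the deposited scaling miR-26b-5p and miR-101-3p, each at 33.3% GC, had ratios of 1.08 and 1.03. miR-26a-5p, at 40.9% GC, was at 0.730. miR-26a-1-3p and miR-101-5p, each at 45.5% GC, were at 1.51 and 0.783, and miR-26b-3p was at 1.01. Whether GC content accounts for any of these ratios was not tested.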
